A study of Mus musculus with 6 samples.

Results

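The genes described here are 10 regulators of the G1 phase of the cell cycle and its exit into S phase, taken by symbol from the 24728 gene symbols with an expression value. They are the cyclins Ccnd1, Ccnd2, Ccnd3 and Ccne1, the cyclin-dependent kinases (CDKs) Cdk4 and Cdk6, the pocket protein Rb1, and the CDK inhibitors Cdkn1b, Cdkn2a and Cdkn2c. All 10 were present in both deposited tables, and another 55 genes of the same pathway were read from the same fits.

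RNA-seq was done on cultured mouse cells that the study names female germline stem cells (FGSCs, stem cells derived from the ovary). There were 3 control samples and 3 samples after short hairpin RNA knockdown of CTCF (shCTCF), a DNA-binding protein that shapes chromatin loops. All 6 samples were labelled as strain C57BL/6 at more than 20 passages, and both groups were grown on inactivated STO fibroblast feeder cells with LIF, EGF, bFGF and GDNF. In the methods of the study, the FGSCs came from ovaries of neonatal Ddx4-Cre; mT/mG mice, in which Cre is driven by a germ cell promoter, and the hairpin was delivered by lentivirus followed by puromycin selection. What the control cells received is not given in the sources used here. The comparison therefore asked how the mRNA levels of the G1 regulators differed between cells with and without CTCF knockdown. Nothing in the labels says that the 3 samples of a group were separate cultures, so the p-values measure the spread between these samples, which may be technical.

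In a dividing mammalian cell, D-type cyclins are made in response to growth factors and switch on CDK4 and CDK6, which phosphorylate the retinoblastoma protein RB1. Phosphorylated RB1 releases E2F transcription factors, which turn on the genes of DNA synthesis, and cyclin E with CDK2 completes the step into S phase. The INK4 inhibitors, encoded by Cdkn2a, Cdkn2b, Cdkn2c and Cdkn2d, bind CDK4 and CDK6 alone, whereas the CIP/KIP inhibitors, encoded by Cdkn1a, Cdkn1b and Cdkn1c, bind cyclin-CDK complexes, including those of CDK2.

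Depth and labels were checked first. Total counts lay between 1686052 and 7044272 fragments per sample, with control replicate 2 the shallowest, and 3 counts corresponded to between 0.426 and 1.78 CPM (counts per library total, scaled to a common size). The targeted mRNA, Ctcf, was at 58.2, 56.1 and 53.5 FPKM (fragments scaled to transcript length and to depth) in the controls and at 0.740, 0.550 and 0.629 in the shCTCF samples, with a log2 fold change of -5.12 and an adjusted p of 1.1e-08 with limma. Ctcf had 0 counts in all 6 samples, controls included, so the count table gave no check of the knockdown. Of 10 germline markers, Ddx4, Dazl, Pou5f1, Dppa3 and Gfra1 were listed at 0 in all 3 controls, and their means in the shCTCF group were at most 0.125 FPKM (Ddx4). The study reported these same genes (there Mvh, Dazl, Oct4, Stella and Gfra1) as expressed in its cultured FGSCs by RT-PCR, and MVH protein by immunofluorescence. The FPKM values here do not show this expression. They come from another method, and the study does not say that its assays used the cells of these 6 samples. Of the 10 germline markers, 3 genes had a mean of 1 FPKM or more in each group. Kit, which mast cells also express, had means of 575 FPKM in the controls and 787 in the shCTCF group, and Etv5 had 17.3 and 14.2. Zbtb16 had 1.56 and 0.288, Ifitm3 0.737 and 10.8, and Prdm1 0.0751 and 0.788. The summed level of 11 mast cell markers was 1482 to 1553 FPKM in the controls and 1503 to 1571 in the shCTCF samples, with 6 and 7 of them at a mean of 1 FPKM or more, and the defining marker Fcer1a was listed at 0 in all samples. Kit and Gata2 (501 and 560 FPKM) made up most of this sum, within which other markers differed in opposite directions: Ctsg had means of 151 FPKM in the controls and 2.22 in the shCTCF group, Hdc had 4.25 and 87.2, and Cpa3 ranged from 215 to 316 FPKM in the controls and from 79.3 to 103 in the shCTCF group. The summed level of 8 macrophage markers was 98.5 to 108 FPKM in the controls and 198 to 234 in the shCTCF samples, with 2 and 3 of them at 1 FPKM or more. Cd68, with means of 44.7 FPKM in the controls and 137 in the shCTCF group, and Adgre1, with 56.7 and 73.7, made up most of these sums. Lyz2 had 0.0274 and 3.29, Csf1r had 0.140 and 0.0689, and C1qa and C1qb were listed at 0. Of 14 fibroblast markers, 5 reached 1 FPKM in each group, with sums of 106 to 134 and 149 to 196 FPKM and with Col3a1 and Lum listed at 0. S100a4, with means of 107 FPKM in the controls and 141 in the shCTCF group, made up most of these sums. Col6a1 (0.144 and 15.3), Thy1 (0.382 and 2.02) and Pdgfra (1.13 and 4.16) were higher in the shCTCF group. Pdgfrb (6.09 and 2.16), Dcn (2.71 and 0) and Fn1 (2.22 and 0.0266) were lower. Of 6 ovarian somatic markers, 0 and 1 reached 1 FPKM, with sums of 0.860 to 1.59 and 1.39 to 1.46 FPKM and with Foxl2, Fshr and Inha listed at 0. The part of these markers in the results was not tested. In bulk samples, fewer cells of a type and less RNA per cell cannot be told apart.

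Promoter sequences from RefSeq (build GRCm38.p6) were found for 7 of the 10 genes, and the 250 bases before the annotated start are printed for 4 genes that changed, namely the kinases Cdk4 and Cdk6, which moved in opposite directions, and the cyclin Ccne1 and the inhibitor Cdkn1b, which did so too. No sequence was found for Ccnd1, Ccnd2 and Rb1. The windows, 5′ to 3′ on the strand of the gene, were chr10:127063285-127063534 (+) for Cdk4, chr5:3343643-3343892 (+) for Cdk6, chr7:38107491-38107740 (-) for Ccne1 and chr6:134920151-134920400 (+) for Cdkn1b. Capitals mark the E-box CACGTG in Cdk4 and Cdk6, the GC box GGGCGG in Ccne1 and the CCAAT box in Cdkn1b, on either strand.
Cdk4: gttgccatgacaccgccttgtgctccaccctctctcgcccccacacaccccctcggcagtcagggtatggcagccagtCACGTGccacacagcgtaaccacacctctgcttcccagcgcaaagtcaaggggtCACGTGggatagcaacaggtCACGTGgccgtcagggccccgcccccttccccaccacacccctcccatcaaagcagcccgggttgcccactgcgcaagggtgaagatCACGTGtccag
Cdk6: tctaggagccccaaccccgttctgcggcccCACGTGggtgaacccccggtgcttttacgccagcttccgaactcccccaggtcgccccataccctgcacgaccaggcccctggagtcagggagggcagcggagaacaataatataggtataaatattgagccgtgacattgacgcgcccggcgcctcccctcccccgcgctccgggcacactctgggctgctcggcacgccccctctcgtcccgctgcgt
Ccne1: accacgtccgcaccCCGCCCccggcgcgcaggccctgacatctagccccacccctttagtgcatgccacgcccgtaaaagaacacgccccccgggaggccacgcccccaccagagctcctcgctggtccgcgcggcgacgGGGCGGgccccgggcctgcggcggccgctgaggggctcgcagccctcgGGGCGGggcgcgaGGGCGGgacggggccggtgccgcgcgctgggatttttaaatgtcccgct
Cdkn1b: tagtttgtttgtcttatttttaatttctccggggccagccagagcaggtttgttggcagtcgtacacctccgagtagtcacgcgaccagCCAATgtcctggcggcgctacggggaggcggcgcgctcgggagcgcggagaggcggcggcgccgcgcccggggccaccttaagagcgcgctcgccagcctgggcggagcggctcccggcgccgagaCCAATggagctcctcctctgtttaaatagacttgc

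The Cdk4 window held 4 E-boxes, which ended 167, 113, 93 and 6 bases before the start, and the Cdk6 window held 1, which ended 215 bases before it. Of all 32851 windows of this length, 6.02% held an E-box and 7 windows (0.0213%) held at least 4. The Ccne1 window held 4 GC boxes, which ended 231, 105, 57 and 44 bases before the start, against 32.7% of all windows with any and 4.09% with at least 4. In the Cdkn1b window the 2 CCAAT boxes ended 157 and 31 bases before the start, against 33.8% of all windows with any and 10.1% with at least 2. The core of the CTCF motif, CCNNN followed directly by AGGNGGC, was in 2.93% of all windows and in none of the 10 windows of these genes (0 windows). The E2F letters TTTCCCGC, TTTGGCGC, TTTCGCGC and TTTGCCGC were in 1.86% of all windows and, among these genes, in 1 of the 2 windows of Cdkn2a. The p53 letters CATGCCC and GGGCATG were in 3.2% of all windows and in none of the 10 windows of these genes. The motif marked for each printed gene, and the cut-offs of 4, 4 and 2 matches, followed the matches seen in these windows. The percentages therefore do not test whether such matches are rare. The printed windows were also rich in G and C, from 64.4% (Cdk4 and Cdkn1b) to 76% (Ccne1), beside a median of 52.4% for all windows. All matches are of letters on both strands, not sites, and no binding data were used here.

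Among the 10 genes, 5 were higher and 2 lower in the shCTCF group on FPKM, and 2 did not pass the test. Ccnd2, Ccne1, Ccnd3, Cdk6 and Ccnd1 rose, in the order of their log2 fold changes, and Cdk4 and Cdkn1b fell. The test was limma on log2(FPKM + 1), with Benjamini-Hochberg adjustment over the 9974 genes whose mean was 1 FPKM or more and a threshold of 0.05. Cdkn2a did not reach that mean and was not tested. The background of these calls was high, because 73% of all genes tested passed the same threshold, 28.8% higher and 44.2% lower. The values of the groups did not overlap for the same 7 genes, 5 higher and 2 lower, and for 76.6% of all genes tested, 30.8% higher and 45.8% lower. The call or the separation alone is therefore not a result about these genes, and the sizes are given for each. A log2 fold change of at least 1 in either direction was found for 5 of the 9 tested genes and for 26.5% of all genes tested, and the median log2 fold change was 0.64 for the 9 genes and -0.17 for all genes. The 10 genes were chosen with earlier results of these data known, so this comparison is not a test. On log2(FPKM + 1) the change of low genes, which are among all genes tested, is also understated.

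**Figure D1:**
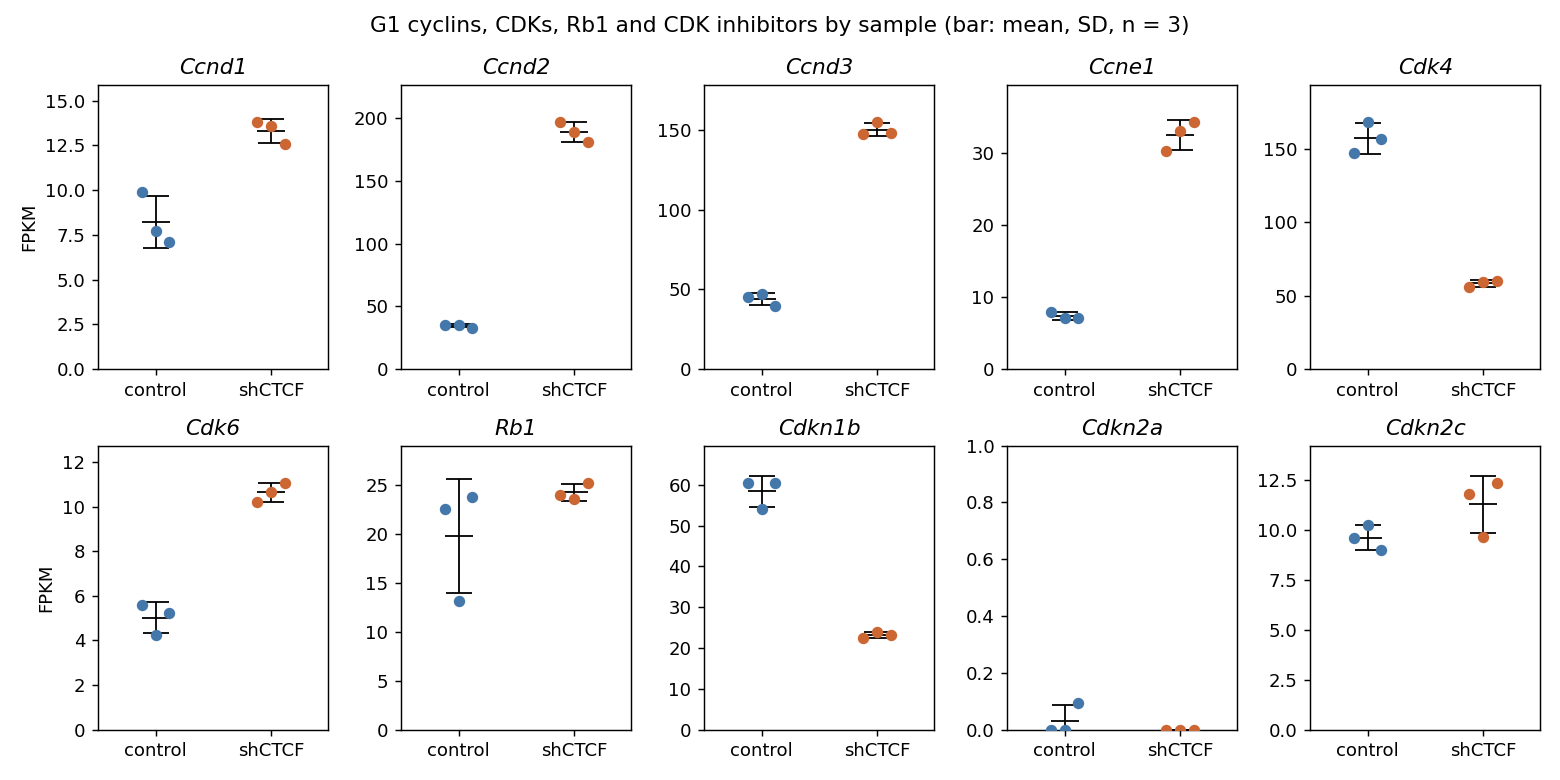
Level of each of the 10 genes in FPKM (vertical axis, starting at 0 and scaled separately for each gene) in the 3 control and 3 shCTCF samples, where points are samples and bars the mean and SD. Points of the groups are apart for Ccnd1, Ccnd2, Ccnd3, Ccne1, Cdk4, Cdk6 and Cdkn1b and overlap for Rb1 and Cdkn2c, and Cdkn2a lies at or near 0.

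The 3 D-type cyclins rose, but by unequal factors. Ccnd2 (NM_009829, mm9 chromosome 6, 127075727 to 127101066, - strand) encodes cyclin D2. Its level was 35.3, 34.9 and 33.0 FPKM in control replicates 1, 2 and 3 and 197, 189 and 181 FPKM in the shCTCF replicates. The groups were far apart, and the spread within each was small. The means were 34.4 ± 1.22 and 189 ± 7.86 FPKM (SD, n = 3), a ratio of 5.49, and the log2 fold change of 2.42 had a standard error (SE) of 0.06 and an adjusted p of 7.29e-08 with limma. This was the largest increase among the 10 genes.

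Ccnd3 (NM_007632, mm9 chromosome 17, 47642000 to 47736637 over its 3 accessions, + strand) encodes cyclin D3. Its level was 45.1, 47.0 and 39.6 FPKM in the controls and 148, 155 and 148 FPKM in the shCTCF samples, again without overlap. The mean rose from 43.9 ± 3.86 to 150 ± 4.22 FPKM (SD, n = 3), which was 3.42-fold, and the log2 fold change was 1.76 (SE 0.08, adjusted p with limma 7.72e-07). All of this level was listed under NM_007632, and the accessions NM_001081635 and NM_001081636 were listed at 0. In the count table Ccnd3 had between 0 and 5 counts in a sample. In its annotation, 92.8% of the exon bases of NM_007632 were shared with other accessions, including those of Bysl, and a fragment in shared exons was counted for none. The change of Ccnd3 thus rested on FPKM alone.

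Ccnd1 (NM_007631, mm9 chromosome 7, 152115836 to 152125830, - strand), which encodes cyclin D1, was the lowest of the D-type cyclins in both groups. The controls were at 9.89, 7.70 and 7.12 FPKM and the shCTCF samples at 13.8, 13.6 and 12.6 FPKM. The lowest shCTCF sample was above the highest control. The mean rose 1.62-fold, from 8.24 ± 1.46 to 13.3 ± 0.658 FPKM (SD, n = 3), with a log2 fold change of 0.64 (SE 0.12, adjusted p with limma 0.00175). A part of its exon bases, 21.6%, was shared with an accession of LTO1 in the annotation of the count table.

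The shares of the D-type cyclins in their sum also differed between the groups. Ccnd2 made up 39.1%, 38.9% and 41.4% of the summed FPKM of the 3 cyclins in the controls against 55.0%, 52.8% and 53% in the shCTCF samples. Every shCTCF sample exceeded every control in this share, by 13.8 percentage points between the means. The share of Ccnd3 was 50.7% ± 1.56 in the controls against 42.6% ± 1.27 after knockdown, and that of Ccnd1 was 9.49% ± 1.27 against 3.77% ± 0.0917 (SD, n = 3), so that Ccnd3 led in the controls and Ccnd2 in the shCTCF group. An exact two-sided permutation test gave p = 0.1 for each share, and 0.1 after adjustment over the 4 shares tested, which is the smallest p that 3 against 3 samples can give and cannot pass the threshold. These statements on shares are therefore descriptions of 6 values without overlap. They rest on FPKM alone, because Ccnd3 had between 0 and 5 counts in a sample.

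Ccne1 (NM_007633, mm9 chromosome 7, 38883003 to 38892509, - strand) encodes cyclin E1, the partner of CDK2. Its level was 7.93, 7.02 and 7.02 FPKM in the controls and 30.2, 33.0 and 34.3 FPKM in the shCTCF samples. All shCTCF samples were far above all controls. The mean rose 4.43-fold from 7.32 ± 0.529 to 32.5 ± 2.08 FPKM (SD, n = 3), and the log2 fold change was 2.01 (SE 0.09, adjusted p with limma 6.8e-07). Its exons were shared with no other accession (0%), and the counts were 204, 45 and 188 in the controls against 669, 650 and 864 in the shCTCF samples, without scaling for depth.

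The kinases of the D-type cyclins moved in opposite directions. Cdk4 (NM_009870, mm9 chromosome 10, 126500591 to 126504344, + strand) was at 147, 168 and 157 FPKM in the controls and at 55.9, 59.4 and 59.8 FPKM in the shCTCF samples. Every shCTCF sample was below every control. The mean fell from 157 ± 10.6 to 58.3 ± 2.16 FPKM (SD, n = 3), a level 2.70-fold lower, with a log2 fold change of -1.41 (SE 0.07, adjusted p with limma 1.34e-06). It was the largest decrease among the 10 genes. In the count table only fragments outside the exon bases shared by its 2 accessions (83.5% of NM_009870) were counted, which left 213, 64 and 239 counts in the controls against 76, 71 and 80 in the shCTCF samples.

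Cdk6 (NM_009873, mm9 chromosome 5, 3343893 to 3531005, + strand), the other kinase of D-type cyclins, was at 5.57, 4.23 and 5.25 FPKM in the controls. It was at 10.2, 10.6 and 11.1 FPKM in the shCTCF samples, above all controls. The mean rose 2.12-fold, from 5.02 ± 0.700 to 10.6 ± 0.441 FPKM (SD, n = 3), with a log2 fold change of 0.96 (SE 0.11, adjusted p with limma 0.000105). Cdk4 stayed the more abundant mRNA of the pair in every sample. The share of Cdk6 in their sum was 3.65%, 2.45% and 3.24% in the controls against 15.4%, 15.2% and 15.6% in the shCTCF samples, a difference of 12.3 percentage points (exact two-sided permutation p = 0.1, adjusted 0.1, the smallest possible).

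When the levels of partner genes were summed, a choice made after the values had been seen, the D-type cyclins and their kinases parted. The summed level of Ccnd1, Ccnd2 and Ccnd3 was 90.4, 89.6 and 79.7 FPKM in the controls and 358, 358 and 342 FPKM in the shCTCF samples. That of Cdk4 and Cdk6 was 153, 173 and 162 FPKM in the controls and 66.1, 70.0 and 70.9 FPKM in the shCTCF samples. The cyclin sum was below the kinase sum in every control and above it in every shCTCF sample. The cyclin sum rests on FPKM alone for Ccnd3, which had between 0 and 5 counts in a sample.

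**Figure D2:**
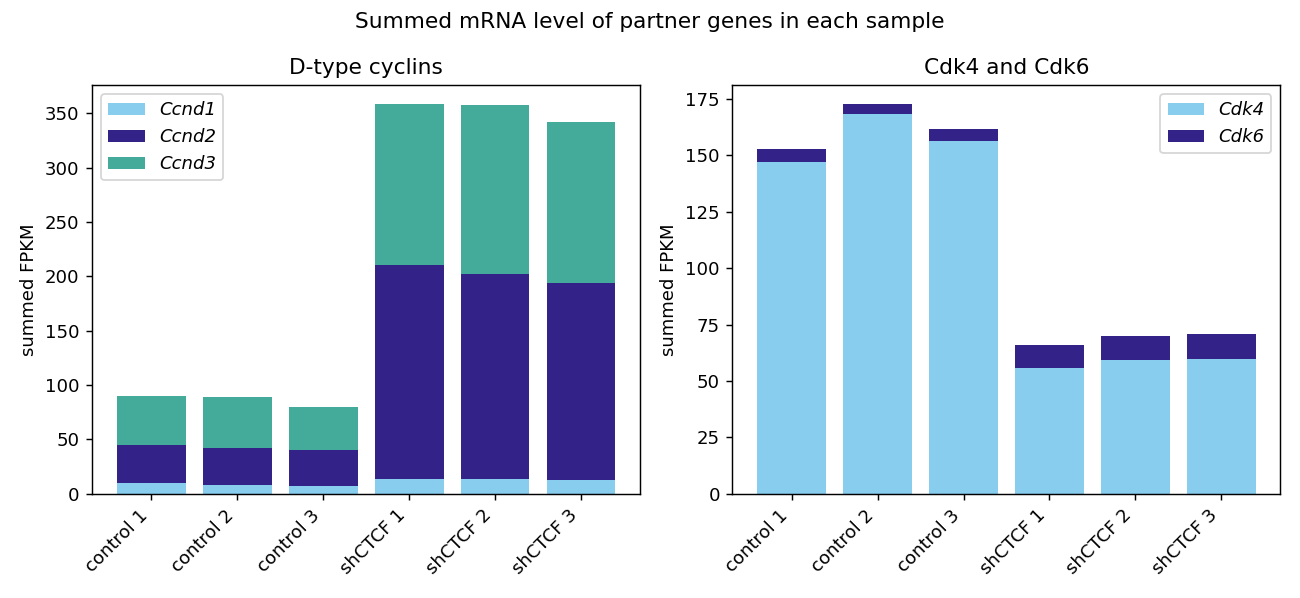
Summed FPKM (vertical axes, from 0) of the D-type cyclins (left) and of Cdk4 and Cdk6 (right) in each of the 6 samples, with the part of each gene stacked by colour. The cyclin bars were at most 90.4 FPKM in the controls and at least 342 in the shCTCF samples, whereas the kinase bars were at least 153 in the controls and at most 70.9 in the shCTCF samples.

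Rb1 (NM_009029, mm9 chromosome 14, 73595309 to 73725629, - strand), which encodes the protein that CDK4 and CDK6 phosphorylate, was at 22.6, 13.1 and 23.8 FPKM in the controls and at 23.9, 23.6 and 25.2 FPKM in the shCTCF samples. Control replicate 2, the shallowest library, was far below all others, and the highest control overlapped the shCTCF samples. The means were 19.8 ± 5.85 and 24.3 ± 0.867 FPKM (SD, n = 3), and the log2 fold change of 0.32 did not pass the test on FPKM (SE 0.20, adjusted p with limma 0.182). Without control replicate 2 it was 0.06 (adjusted p with limma 0.355). On counts the log2 fold change was 0.43 with an adjusted p of 0.0214 with edgeR. Without control replicate 2 it was smaller on counts, 0.27, with an adjusted p of 0.000238 with edgeR.

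Cdkn1b (NM_009875, mm9 chromosome 6, 134870419 to 134875543, + strand) encodes p27, an inhibitor of cyclin-CDK complexes. It was at 60.5, 54.1 and 60.4 FPKM in the controls and at 22.4, 23.9 and 23.2 FPKM in the shCTCF samples. The groups were well apart. The mean fell from 58.3 ± 3.69 to 23.1 ± 0.774 FPKM (SD, n = 3), a level 2.52-fold lower, with a log2 fold change of -1.30 (SE 0.07, adjusted p with limma 2.5e-06).

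Cdkn2c (accessions NM_001301368 and NM_007671, mm9 chromosome 4, 109333481 to 109339361, - strand) encodes the INK4 inhibitor p18. It was at 9.57, 10.2 and 8.99 FPKM in the controls and at 11.8, 9.65 and 12.4 FPKM in the shCTCF samples. One shCTCF sample, replicate 2, lay within the range of the controls. The means were 9.60 ± 0.619 and 11.3 ± 1.43 FPKM (SD, n = 3), and the log2 fold change of 0.21 did not pass the test (SE 0.11, adjusted p with limma 0.122). The accession NM_001301368 was at 6.80, 8.40 and 5.55 FPKM in the controls and at 6.50, 7.29 and 6.44 FPKM in the shCTCF samples. NM_007671 was at 2.77, 1.83 and 3.45 FPKM in the controls and at 5.28, 2.36 and 5.91 FPKM in the shCTCF samples, so that the higher sums of shCTCF replicates 1 and 3 lay in this accession. The accessions share 80.6% of the exon bases of NM_007671, and how Cufflinks divided the reads between them is not checked by the counts, where NM_007671 had between 0 and 9 counts.

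Cdkn2a (accessions NM_009877 and NM_001040654, mm9 chromosome 4, 88920377 to 88940523, - strand), which encodes the INK4 inhibitor p16 and the p53 activator ARF, was listed at 0, 0 and 0.0935 FPKM in the controls and at 0 FPKM in the 3 shCTCF samples. The count table held 0 counts for it in all 6 samples, which allows up to 3 counts, or 0.426 to 1.78 CPM, in a sample by counting error alone. A part of its exon bases (69.2% of NM_009877 and 75.7% of NM_001040654) was shared by both accessions and could not be counted. No change could be measured for this gene.

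The genes around Cdkn2a were also at or near 0, a pattern followed up after the values had been seen. In mm9, a run of 50 consecutive genes of chromosome 4, from Mir491 to Tusc1 (87767944 to 93002202, 5.23 Mb), held no FPKM value of 1 or more in any of the 6 samples. Gm13287, a gene of the run, had no FPKM value. Among all symbols 42.6% reached 1 FPKM in a sample. Of the 49 with an FPKM value, 43 were listed at 0 in every sample, and the highest value was 0.184 FPKM. The counts in this run were at most 3. The run held the type I interferon genes, which many cells do not express, but also Mtap, an enzyme of methionine salvage, at most at 0.0727 FPKM and 3 counts, and the INK4 inhibitor Cdkn2b, listed at 0 in all samples. On one side lay Focad, within which Mir491 is placed, at 8.53, 9.22 and 8.59 FPKM in the controls and 2.16, 2.23 and 2.12 FPKM in the shCTCF samples. On the other side lay Caap1, at 7.05, 5.82 and 7.17 FPKM in the controls and 4.41, 5.98 and 5.99 FPKM in the shCTCF samples. The pattern held in both groups, and its cause was not tested.

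**Figure D3:**
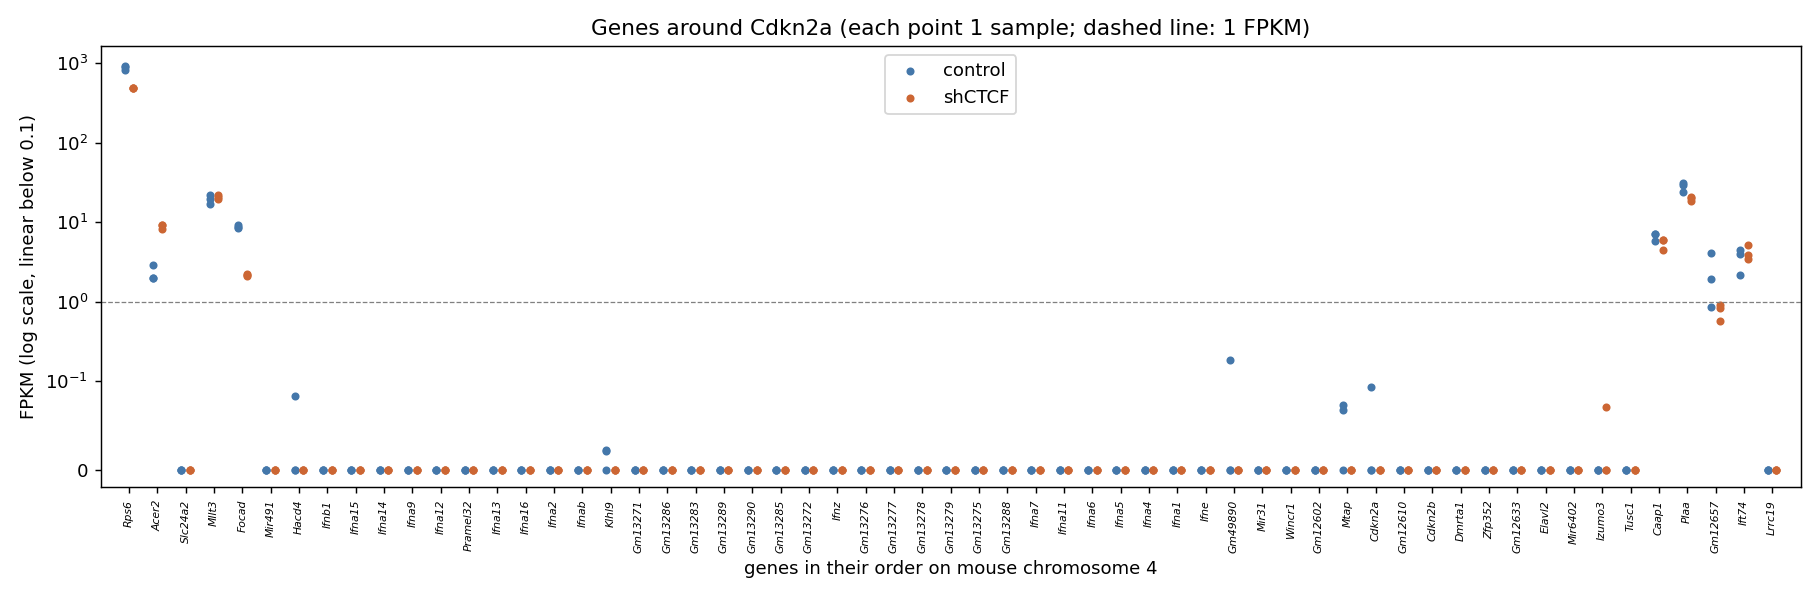
FPKM (vertical axis, logarithmic above 0.1 and linear below) of the genes around Cdkn2a in their order on chromosome 4, with 1 point per sample and the dashed line at 1 FPKM. From Mir491 to Tusc1 all points lie below 1 FPKM, at most at 0.184, whereas Focad and Caap1 at either side lie above it in all 6 samples.

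FPKM is scaled to transcript length, so levels can be ordered between genes. In the controls the order of the mean levels was Cdk4, Cdkn1b, Ccnd3, Ccnd2, Rb1, Cdkn2c, Ccnd1, Ccne1, Cdk6 and Cdkn2a. The ranges of Cdkn2c and Ccnd1 overlapped, as did those of Ccnd1 and Ccne1, and the other neighbours did not. In the shCTCF group it was Ccnd2, Ccnd3, Cdk4, Ccne1, Rb1, Cdkn1b, Ccnd1, Cdkn2c, Cdk6 and Cdkn2a, and the ranges overlapped between Rb1 and Cdkn1b and between Cdkn2c and Cdk6. Cdk4 and Cdkn1b thus led in the controls, and the cyclins D2 and D3 led after knockdown.

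The count table gave a second quantification of 8 of the 10 genes, from the same 6 libraries and so not an independent measurement. With edgeR, 5 of these were higher and 2 lower, against 69.1% of all 7339 genes tested with a call, 34.8% higher and 34.3% lower. The 6 genes that changed on FPKM and could be tested here kept their direction. The log2 fold changes on counts were 2.67 for Ccnd2 (adjusted p with edgeR 2.8e-11), 2.26 for Ccne1 (2.15e-09), 1.24 for Cdk6 (2.39e-07), 0.79 for Ccnd1 (9.75e-05), -1.26 for Cdk4 (4.4e-06) and -1.20 for Cdkn1b (7.13e-08). Rb1 passed on counts and not on FPKM. Cdkn2c did not pass in either table, and its log2 fold change on counts was -0.04 (SE 0.18, adjusted p with edgeR 0.85).

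**Figure D4:**
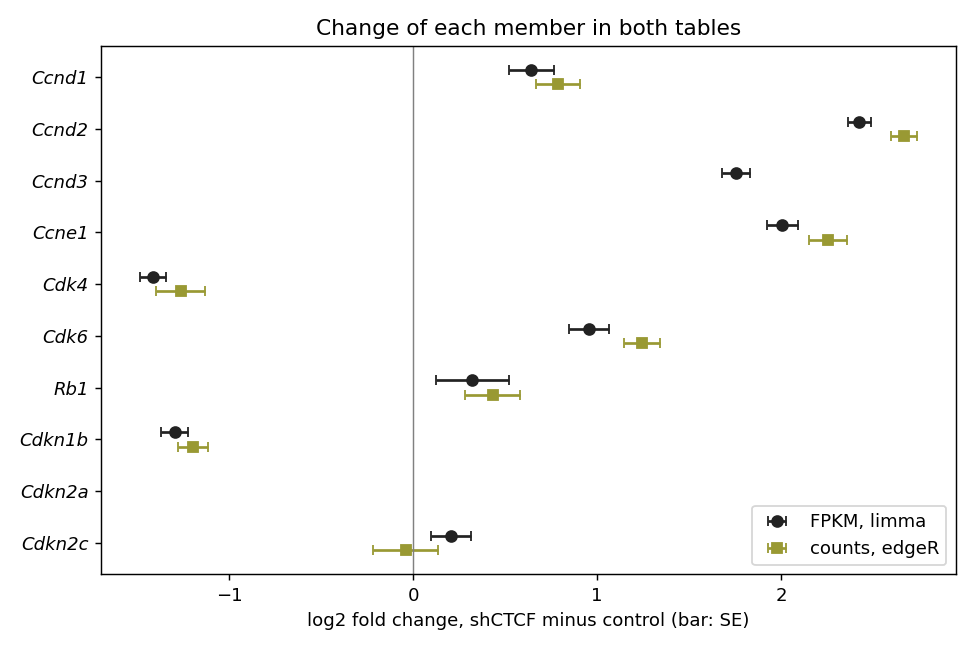
Log2 fold change of each gene, shCTCF minus control (horizontal axis), on FPKM with limma (circles) and on counts with edgeR (squares), where bars are 1 SE. The values run from -1.41 for Cdk4 to 2.42 for Ccnd2 on FPKM, Ccnd3 has no square because it was not tested on counts, and Cdkn2a was tested in neither table.

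The centre of all genes affects these values. The median over all genes on FPKM was -0.17 (log2 fold change), and it became -0.01 after the samples were brought to 1 common median. Under that scaling the 5 genes that rose had log2 fold changes of 0.81 (Ccnd1) to 2.61 (Ccnd2), and Cdk4 and Cdkn1b had -1.23 and -1.12, with all 7 past the threshold. Rb1 (0.50, adjusted p 0.0492 with limma) and Cdkn2c (0.37, adjusted p 0.0169 with limma) then passed as well, so that all 9 genes tested had a call.

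Most other genes of the pathway that changed were lower in the shCTCF group. Of 55 genes in 7 lists, 50 were tested on FPKM, of which 12 were higher, 29 lower and 9 not past the threshold. Their median log2 fold change was -0.55, beside -0.17 for all genes. A call was thus made for 82% of them, beside 73% of all genes, and 70.7% of the calls were lower, beside 60.5% of those of all genes. On counts, 7 of 33 were higher, 16 lower and 10 not past the threshold, a share of 69.7% called beside 69.1% of all genes. Another 17 genes tested on FPKM could not be tested on counts, and 7 of them had 0 counts in all samples.

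Among the other G1 cyclins and CDKs, 2 of 6 tested genes rose and 3 fell on FPKM. Of all genes, 28.8% were called higher and 44.2% lower. Ccne2, the second E-type cyclin, was at 8.77, 2.98 and 8.96 FPKM in the controls and 19.0, 19.8 and 21.4 FPKM in the shCTCF samples (log2 fold change 1.53, adjusted p with limma 0.00344). Cdc25a, the phosphatase that activates CDK2, rose with a log2 fold change of 1.16. Ccnh and Mnat1, which with Cdk7 form the kinase that activates other CDKs, fell with log2 fold changes of -0.97 and -0.79. The count table gave no test of Ccne2 (0 to 5 counts in a sample) and Ccnh (0 counts).

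Among the other CDK inhibitors, Cdkn1a rose and Cdkn2d fell. Cdkn1a, which encodes the CIP/KIP inhibitor p21, was at 68.7, 72.7 and 72.4 FPKM in the controls and at 314, 293 and 280 FPKM in the shCTCF samples. These values did not overlap, and the log2 fold change of 2.04 (adjusted p with limma 1.63e-07) was opposite in direction to that of Cdkn1b. The count table held few counts of Cdkn1a (8 to 25 in a sample). Scaled by the adjusted library totals of edgeR rather than by the plain totals, they were 1.16, 4.46 and 2.04 CPM in the controls against 4.59, 3.80 and 3.60 CPM in the shCTCF samples. Here the groups overlapped, and the log2 fold change was 0.99 with an adjusted p of 0.0441 with edgeR. Cdkn2d, which encodes p19, had a log2 fold change of -0.85 (adjusted p with limma 0.00793).

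Of 7 other pocket proteins and MuvB subunits, 0 rose and 5 fell on FPKM, where 28.8% of all genes were called higher and 44.2% lower. The pocket proteins Rbl1 and Rbl2, relatives of RB1, had log2 fold changes of -0.97 and -0.51, the MuvB subunit Lin37 had -1.02, and the histone-binding subunit Rbbp4 had -0.70. On counts 1 of 3 tested genes fell, and Rbl2, Lin9 and Lin37 had 0 counts in all samples. Rbl1 did not pass there, with -0.18 (adjusted p with edgeR 0.297), nor on FPKM with only its accession of the highest mean (-0.26, adjusted p with limma 0.162). Rb1 itself was called lower in neither table.

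The E2F and DP factors, which RB1 and its relatives bind, were divided, with 4 of 10 higher, 3 lower and 3 not past the threshold. The shares of all genes called on FPKM were 28.8% higher and 44.2% lower. E2f4, a repressor E2F, was at 74.9, 95.7 and 79.4 FPKM in the controls and at 22.4, 28.5 and 24.6 FPKM in the shCTCF samples, a log2 fold change of -1.69 (adjusted p with limma 7.83e-06). E2f5 was called lower as well, but its FPKM was listed at 0 in all 3 shCTCF samples, where it had 29, 31 and 40 counts, and on counts its log2 fold change was -1.05 (adjusted p with edgeR 0.00158). E2f7 rose with 0.77 and Tfdp2, a DP partner, fell with -0.63 on FPKM. E2f7 had 0 counts in all samples and Tfdp2 at most 4, and with only its accession of the highest mean Tfdp2 did not pass on FPKM (-0.19, adjusted p with limma 0.548).

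Among 7 genes for the turnover of G1 regulators, 1 rose and 3 fell on FPKM, beside 28.8% and 44.2% of all genes. Cks1b, a cofactor in the degradation of p27, was at 144, 160 and 150 FPKM in the controls and at 32.2, 34.5 and 42.2 FPKM in the shCTCF samples (log2 fold change -2.04, adjusted p with limma 1.57e-06). Fzr1, an activator of the anaphase-promoting complex in G1, fell with -1.44, and Fbxw7, which targets cyclin E for degradation, rose with 0.66. Skp1 passed narrowly with -0.36 (adjusted p with limma 0.0499), lost this call in 11 of 14 alternatives on FPKM and did not pass on counts (-0.21, adjusted p with edgeR 0.154).

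All 14 E2F target genes of DNA synthesis and S phase passed the threshold on FPKM, 4 higher and 10 lower, where 28.8% of all genes were called higher and 44.2% lower. On counts 9 could be tested, of which 3 were higher, 5 lower and 1 not past the threshold. Ccna2, which encodes cyclin A2, was at 58.2, 48.0 and 58.8 FPKM in the controls and at 12.2, 12.4 and 13.0 FPKM in the shCTCF samples (log2 fold change -2.04). Mcm7 and Mcm6, subunits of the replicative helicase, fell with -1.33 and -1.30, and Rrm2, a subunit of ribonucleotide reductase, rose with 1.29. The decrease of Mcm7 and Mcm6 rested on FPKM alone. Mcm7 had 4 to 15 counts in a sample and did not pass on counts (0.06, adjusted p with edgeR 0.89), and Mcm6, with 0 to 10 counts, was not tested and had mean levels of 0.748 CPM in the controls and 1.29 CPM in the shCTCF group.

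The 4 genes tested among the G2 and mitotic cyclins and Cdk1 fell on FPKM, where 44.2% of all genes were called lower. Ccnb1 was at 51.8, 41.8 and 56.2 FPKM in the controls and at 8.47, 8.11 and 8.45 FPKM in the shCTCF samples (log2 fold change -2.44, adjusted p with limma 9.46e-07). Ccnb2 had -1.96, Cdk1 had -0.87 and Ccnf had -0.58. All 4 genes also passed as lower on counts, where 34.3% of all genes were called lower. On FPKM, the 5 D-type and E-type cyclins were thus higher and Ccna2, Ccnb1, Ccnb2 and Ccnf lower in the shCTCF group.

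**Figure D5:**
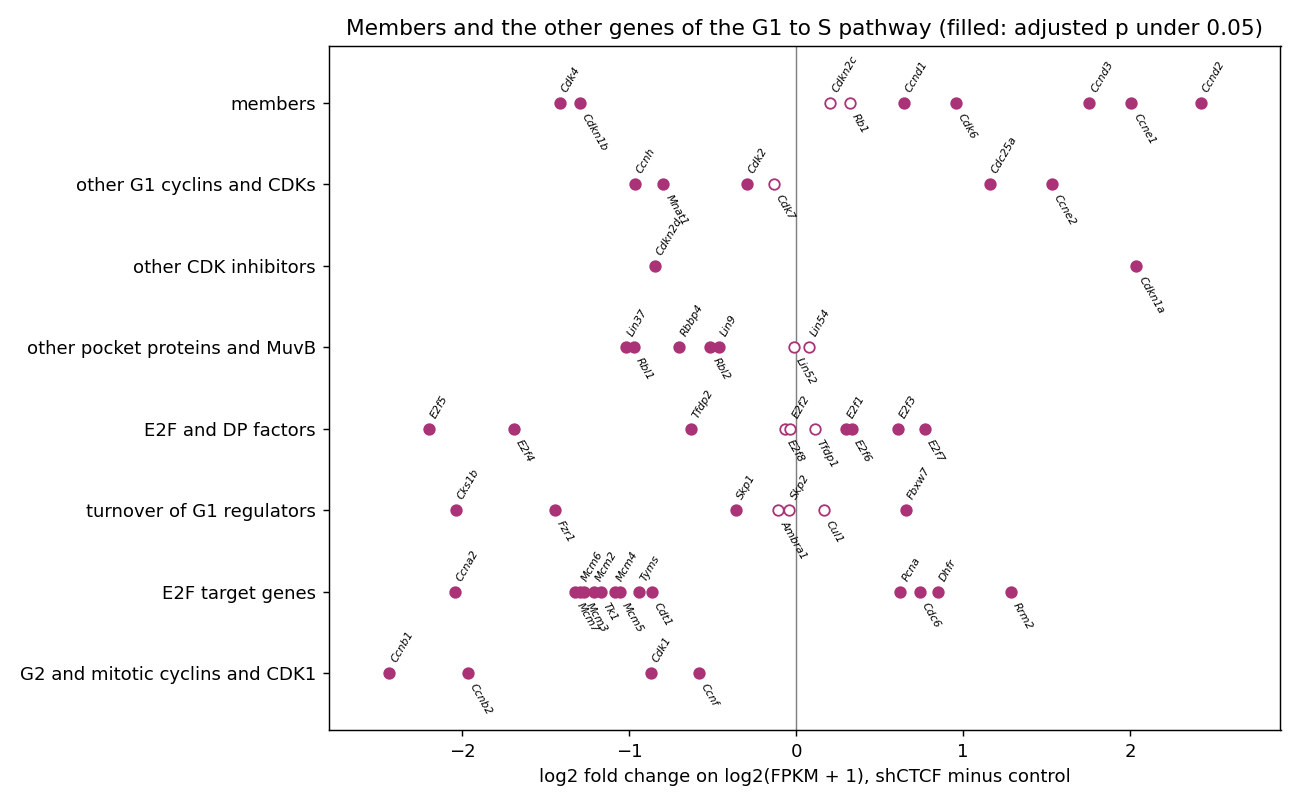
Log2 fold change on log2(FPKM + 1), shCTCF minus control (horizontal axis), of each tested gene of the 10 and of the 7 other pathway lists, where filled points have an adjusted p under 0.05. The 4 points of the G2 and mitotic list lie between -2.44 and -0.58, the D-type and E-type cyclins lie at 0.64 or above, and the point of E2f5 rests on values listed at 0.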

How the data were processed

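The submitters' processing notes and the study's methods name trimming, alignment to mm9 with HISAT2 (version as given, 4.8.2) and Cufflinks 2.2.1 with RefSeq transcripts. The deposited FPKM values are those of Cufflinks, normalized by the authors for depth. For the deposited counts the authors ran featureCounts 1.6.2, which gave whole fragments per accession, without strand, and a fragment in exons of more than 1 accession was counted for none (file header). Accessions were given symbols from the RefSeq table of GRCm38.p6 (41181 of 41388 in the count table, 41680 of 41876 in the FPKM table, names only), and values were summed per symbol (24809 symbols in the count table, 24728 in the FPKM table). Accessions without a symbol took up to 0.622% of a library. Gene positions, counted from 1, were read from the count table and refer to mm9.

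FPKM was tested as log2(FPKM + 1) with limma 3.58.1 (eBayes with trend) for genes whose mean was 1 FPKM or more, on which scale the change of low genes is understated. Counts were tested with edgeR 4.0.16 (quasi-likelihood, TMM, filterByExpr, R 4.3.3), and DESeq2 1.42.0 was an alternative. The SE on counts was derived from the fold change and its quasi-F statistic. For single genes, CPM used the totals of the genes kept by filterByExpr, multiplied by the TMM factors. The floors in CPM used all counts of a library. P-values were two-sided and adjusted over all genes tested. Data were also simulated, for counts and for FPKM, from the mean levels over all 6 samples. Noise was set rather than estimated from the samples, and 100 genes were changed at each fold. In these simulations, 97% of 2-fold and 100% of 4-fold changes were recovered on counts (7290 genes tested) and 100% of both on FPKM (9982 genes). Far more genes were called in the real data, so these rates do not measure recovery there. The 10 genes, the pathway lists and the marker lists were chosen with earlier results of these data known. Named were all 10 genes, Ctcf and, of each other list, at most 4 genes with the largest change on FPKM past the threshold, and other names and the sums of partner genes were chosen after their values were seen. Counting noise was exceeded by the differences between replicates within each group (chi-square per degree of freedom 2.07 to 8.17, and 93.0 to 212.6 between groups), and floors and intervals cover counting error only.

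The same replicate numbers stand in both groups, but the methods describe no pairing, and the deviations of same-numbered samples correlated at -0.04 to 0.04, so the numbers were not used as pairs.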

Additional observations from a re-analysis of the deposited data

How the results depend on the processing

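The calls and directions of Ccnd1, Ccnd2, Ccnd3, Ccne1, Cdk4, Cdk6 and Cdkn1b were unchanged under every alternative in which they were tested, which were other pseudocounts, filters, variance models, scalings, tools, the choice of 1 accession per gene and the omission of each sample. Rb1 and Cdkn2c were the exceptions. Rb1 passed on FPKM with samples scaled to the same median, and it lost its call on counts with scaling by library size only (0.26, adjusted p with edgeR 0.119), without shCTCF replicate 1 (0.45, adjusted p with edgeR 0.058) and without shCTCF replicate 3 (0.42, adjusted p with edgeR 0.0813). Cdkn2c passed on FPKM with the same median, with quantile normalization (0.37, adjusted p with limma 0.0187) and without shCTCF replicate 2 (0.30, adjusted p with limma 0.0375). Its direction turned, without passing the threshold, on FPKM with the accession of the highest mean (-0.017) and on counts with the accession of the highest mean (0.020). When each sample was left out in turn, Cdkn2c on counts ranged from -0.19 to 0.045, Rb1 on FPKM from 0.06 to 0.47, and Rb1 on counts from 0.27 to 0.59. The number of the 10 genes past the threshold then ranged from 7 to 8 on FPKM and from 6 to 7 on counts, and that of the other pathway genes from 37 to 42 and from 19 to 24. Of the 41 other pathway genes with a call on FPKM, 6 lost it in at least 1 alternative, Skp1 in 11 of 14, Cdk2 and E2f6 in 7, E2f1 in 5 and Rbl1 and Tfdp2 in 1 each. The causes were not tested.

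With the replicate number as a block, 7 of the 10 genes passed on FPKM and 7 on counts, as without it, and Ccnd2 had a log2 fold change of 2.42 and Cdk4 of -1.41 on FPKM. For the shares, the exact sign-flip test of same-numbered differences gave p = 0.25, the smallest that 3 pairs allow. The block changed no call of the 10 genes and Ctcf.

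Few or 0 counts limited the count table as a check of Ctcf, Ccnd3 and Cdkn2a. Among the named pathway genes this held for Ccne2, Cdk2, Ccnh, Cdkn1a, Lin9, Lin37, Rbl2, E2f6, E2f7, Tfdp2, Mcm6 and Mcm7. Cdk4 had at most 239 counts at 157 FPKM in the controls. Control replicate 2, with a floor of 1.78 CPM, was the least precise library.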

Other observations

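Ratios between partner mRNAs, chosen after their values were seen, were also compared. The summed FPKM of the D-type cyclins per summed FPKM of Cdk4 and Cdk6 was 0.591, 0.519 and 0.493 in the controls against 5.43, 5.11 and 4.83 in the shCTCF samples, a ratio of means of 9.58. Ccne1 per Cdk2, its kinase, was 0.441, 0.453 and 0.409 in the controls against 2.36, 2.24 and 2.60 in the shCTCF samples. Cdk2 had 0 to 7 counts in a sample and was not tested on counts, so its level here rests on FPKM alone. The same holds for Ccnd3 in the ratio of the D-type cyclins, with 0 to 5 counts in a sample. The groups did not overlap in either ratio, and the exact permutation p of 0.1 was the smallest that 3 against 3 samples can give. The ratios are of mRNA levels, and the proteins were not measured here.

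The shares of the CIP/KIP inhibitors differed too. Cdkn1a made up 53.2%, 57.4% and 54.5% of the summed FPKM of Cdkn1a and Cdkn1b in the controls against 93.4%, 92.5% and 92.4% in the shCTCF samples. The sum itself was 129, 127 and 133 FPKM in the controls against 336, 317 and 304 FPKM in the shCTCF samples, so that on FPKM the level of both inhibitors together was higher in each shCTCF sample although Cdkn1b fell. Share and sum both rest on the FPKM of Cdkn1a, which had only 8 to 25 counts in a sample. Its groups overlapped on counts, with a log2 fold change of 0.99 there against 2.04 on FPKM.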
